A study of Mus musculus with 12 samples.

Results

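The response of mouse Beko cells to apicidin was compared with their response to knockdown of Hdac3, gene by gene, and the genes and functions that the drug and the knockdown moved differently are described. Beko cells grow in culture as pre-T cells, thymic precursors that need Notch signals to develop. The comparison used 8 of the 12 libraries of the series and rested on a difference of differences. The first term was the change with 0.01 µg/ml apicidin for 24 h against DMSO for 24 h (2 libraries each). The second was the change with a hairpin against Hdac3 against a scrambled hairpin, in infected cells taken 96 h after puromycin (2 libraries each). The labels give 1 hairpin, named Sh1. No other agent or genotype is named for these 4 groups, and all of them were grown in the same low-serum medium. The series was made to ask what HDAC3 does at Notch target genes, through a drug and through a hairpin. Dose, time, vehicle and infection all differ between the arms, so none of them can be told apart from the drug or the hairpin. A difference above 0 means that a gene stood higher after apicidin, relative to DMSO, than after knockdown, relative to the scrambled hairpin. Of 23366 gene symbols, 12233 had a normalized value of 10 or more in at least 2 libraries of each experiment and were tested.

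HDAC3 is the catalytic subunit of corepressor complexes, which nuclear receptors and other transcription factors recruit to remove acetyl groups from histones. Apicidin is a fungal cyclic peptide that blocks the catalytic pocket of class I histone deacetylases, so other members of that class are also targets. A hairpin lowers the HDAC3 mRNA and with it the protein, including any function that does not need catalysis.

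Apicidin and DMSO libraries held 21766984 to 29652001 reads assigned to genes, those with hairpins 24673559 to 29004315, and r between replicates, over the genes tested, was 0.995 to 0.996. Levels below are normalized reads, that is whole reads divided by 1 factor per library, and were compared only within an experiment. Log2 changes are given ± SE of a limma fit to all 8 libraries on log2(value + 1), and adjusted p-values come from that fit with Benjamini-Hochberg adjustment over all genes tested. The labels do not say that replicates came from separate cultures, so each p-value reflects only library-to-library spread, which could be technical. All 10 pre-T cell markers were at 198 or more in all 8 libraries. The B lineage factors Pax5 and Ebf1, the NK cell genes Ncr1 and Klrd1, the mast cell gene Fcer1a and the globin gene Hba-a1 were at 0 in all 8, while the erythroid factor Gata1 stood at 112 to 166. The NK marker Eomes was at 36.9 to 51.8, and the erythroid markers Klf1 and Alas2 at 8.23 to 27.3 and 4.54 to 17.5. The other B lineage, NK and myeloid markers of the short set looked at reached at most 10.9 (Cd79a). Some B lineage and mast cell genes outside that set stood higher, among them Blnk (19.8 to 111) and Cpa3 (457 to 2396). The mature T markers Cd4 (2060 to 6873) and Cd8a (1699 to 2324) were high in all 8. The summed level of the pre-T markers was 71361 and 72116 with apicidin against 109376 and 110631 with DMSO, and 93720 and 93890 in the shHdac3 libraries, where the scrambled ones had 126796 and 127405, and the part of that shift in the results was not tested. In bulk RNA a change in the share of cells in a state cannot be told apart from a change in each cell.

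Hdac3 mRNA fell with the hairpin and stood close to its control with the drug. It was at 774 and 819 normalized reads after knockdown against 2012 and 1930.1 for the scrambled control, and at 2008 and 2039 with apicidin against 2172 and 2262 with DMSO. The knockdown change was -1.31 ± 0.05, the apicidin change -0.13 ± 0.05, and the difference 1.17 ± 0.07 (adjusted p = 4.3e-11). The small apicidin change passed at an adjusted p of 0.034, a call that was lost with DESeq2 (0.12), without an intensity trend (0.1), without DMSO replicate 2 (0.2), without apicidin replicate 1 (0.16) and without apicidin replicate 2 (0.087). Among the 10 other classical deacetylase genes, 3 differed above 0 and 0 below, a called share of 30% against 33.2% of all genes tested. Hdac5, a class II deacetylase that shuttles between nucleus and cytoplasm, rose in both arms, by 1.51 ± 0.12 with apicidin and 0.89 ± 0.12 with knockdown, and its difference of 0.62 ± 0.17 was lost without an intensity trend (0.054). Hdac1, the catalytic partner of the NuRD and Sin3 complexes, rose with apicidin (0.32 ± 0.04) and was at 0.10 ± 0.04 with knockdown (adjusted p = 0.08), and the difference of 0.22 ± 0.06 was lost without an intensity trend (0.08). Hdac2 did not pass for the difference (-0.14 ± 0.06, adjusted p = 0.086; 0.05 without apicidin replicate 2). Hdac11, with 26% of its exonic bases under an opposite-strand gene in GENCODE M21, also differed (0.63 ± 0.21), a call lost with DESeq2 (0.12), without DMSO replicate 1 (0.056), without apicidin replicate 2 (0.074), without scrambled replicate 1 (0.06), without scrambled replicate 2 (0.068) and without shHdac3 replicate 2 (0.087).

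The responses to the drug and to the knockdown differed at 4060 genes, 33.2% of those tested. Of these, 1762 (14.4%) differed above 0 and 2298 (18.8%) below 0, and with upper-quartile scaling the split was 2154 above and 1782 below. In the counts of list members below, above 0 and below 0 likewise hold only genes whose difference passed. The apicidin response passed for 4769 genes (39.0%), 2247 up (18.4%) and 2522 down (20.6%). The knockdown response passed for 5079 genes (41.5%), 2763 up (22.6%) and 2316 down (18.9%). Across the 12233 genes the log2 responses correlated with r = 0.26 and rho = 0.20, a description across genes, which are not independent replicates and share the libraries. Most differences were small: the median size among called genes was 0.38 on the log2 scale, and 345 genes differed by 2-fold or more, 276 above 0 and 69 below.

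A gene was called opposed when both responses and the difference passed and the responses had opposite signs. There were 744 opposed genes (6.08% of those tested), 308 up with apicidin and down with knockdown (2.52%) and 436 down with apicidin and up with knockdown (3.56%). Their shifts were modest, with median responses of 0.33 and -0.35 in the first set and -0.22 and 0.23 in the second. With DESeq2 368 genes were opposed, 147 and 221, and without an intensity trend 436. Without apicidin replicate 1 the first set held 203 genes. The remaining called differences fell mostly to genes where only 1 of the responses passed, which does not show that the other arm left them unchanged. Above 0, 567 passed with apicidin only and 601 with knockdown only, and below 0, 694 passed with apicidin only and 889 with knockdown only. A smaller number moved the same way by unequal amounts: 92 rose and 105 fell in both arms with a difference above 0, and 86 rose and 106 fell in both with a difference below 0.

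**Figure D1:**
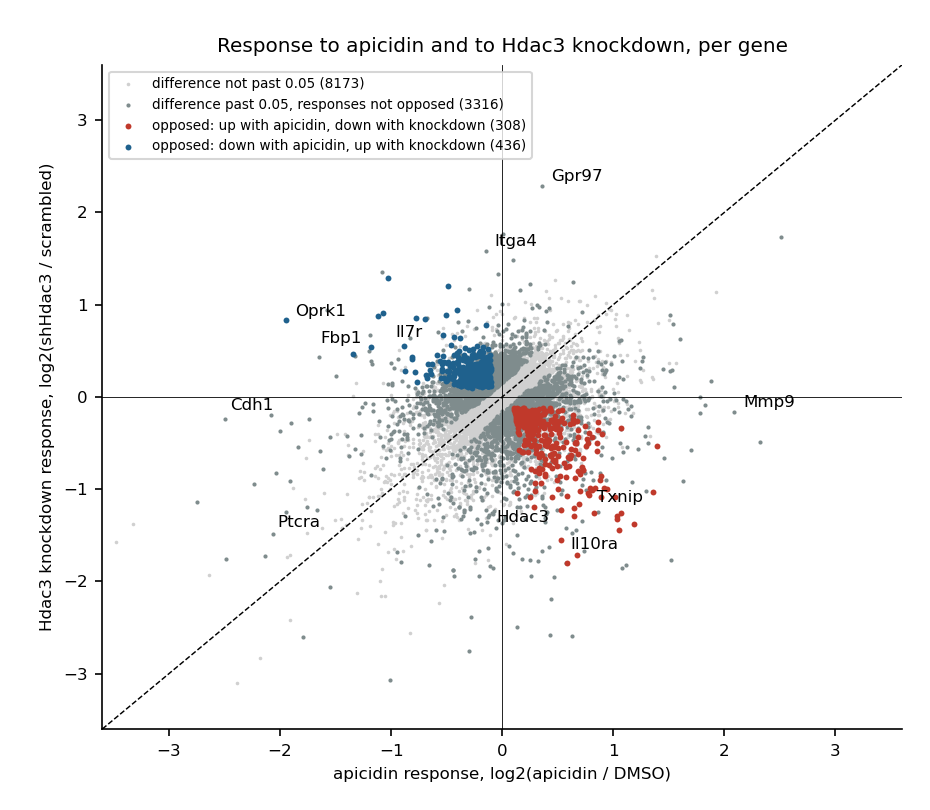
Log2 response to apicidin (horizontal axis) against log2 response to Hdac3 knockdown (vertical axis) for the 12233 genes tested, 1 point per gene, with the dashed line where both are equal. The 308 opposed genes in red fill the lower right and the 436 in blue the upper left, and Hdac3 lies far below the line.

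Ribosome biogenesis genes, which make and process ribosomal RNA in the nucleolus, differed below 0 in 31 of 34 cases and above 0 in none. The knockdown raised 31 of them (median 0.35) and lowered none, while apicidin lowered 15 and raised 1 (median -0.08); without an intensity trend the count lowered by apicidin was 9. The same medians over all genes tested were 0.00 and 0.00. Opposed changes were called at 14 of them, 7 without an intensity trend. The list also holds Srm and Ppat, which belong by function to polyamine and purine synthesis and are counted in that list as well.

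Utp20, a component of the small-subunit processome, had 1361 and 1369 normalized reads in its hairpin control, 1882 and 2136 after knockdown, 1471 and 1480.4 with DMSO and 1271 and 1256 with apicidin. Its level was above both controls in both knockdown libraries and below both controls in both apicidin libraries. The responses were 0.55 ± 0.05 and -0.22 ± 0.05 and the difference -0.78 ± 0.08 (adjusted p = 9.4e-08), and the apicidin call was lost without an intensity trend (0.05). Nop2, a ribosomal RNA methyltransferase, stood at 3809 and 3781 with shHdac3 against 2495 and 2609, and at 2659.8 and 2658 with apicidin against 2618 and 2765. Only its knockdown response passed (0.57 ± 0.04, against -0.02 ± 0.04 with apicidin, adjusted p = 0.79), and the difference was -0.59 ± 0.06. Rrs1, a ribosome assembly factor, was opposed (-0.36 ± 0.05 and 0.40 ± 0.05), as were Dkc1, the pseudouridine synthase dyskerin (-0.28 ± 0.04 and 0.41 ± 0.04), and Gnl3, the nucleolar GTPase nucleostemin (-0.22 ± 0.05 and 0.44 ± 0.05), each given with apicidin first.

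The E-box CACGTG, which reads the same on both strands and is bound by MYC with MAX, was looked for in RefSeq promoters (GRCm38.p6, 250 bases before to 50 after the start), because MYC is known to drive this gene group. It was found for 7 of the 28 ribosome biogenesis genes with a promoter entry (25%), against 11.8% of all tested genes with one. The share was also 25% for cholesterol synthesis and clock genes, and 9.09% for mitotic genes. The build is later than the mm9 build of the deposited values, and promoters were matched by gene symbol. Utp20 and Nop2 are shown as the 2 members described above that carry the letters, in capitals, at chr10:88826765-88827064, minus strand and chr6:125131633-125131932, plus strand.
Utp20: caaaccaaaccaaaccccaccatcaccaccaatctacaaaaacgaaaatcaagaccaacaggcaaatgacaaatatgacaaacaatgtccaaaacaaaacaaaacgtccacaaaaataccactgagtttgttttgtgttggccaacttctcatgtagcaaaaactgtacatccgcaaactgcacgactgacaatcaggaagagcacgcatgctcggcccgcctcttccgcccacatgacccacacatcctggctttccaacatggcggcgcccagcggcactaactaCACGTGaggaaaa
Nop2: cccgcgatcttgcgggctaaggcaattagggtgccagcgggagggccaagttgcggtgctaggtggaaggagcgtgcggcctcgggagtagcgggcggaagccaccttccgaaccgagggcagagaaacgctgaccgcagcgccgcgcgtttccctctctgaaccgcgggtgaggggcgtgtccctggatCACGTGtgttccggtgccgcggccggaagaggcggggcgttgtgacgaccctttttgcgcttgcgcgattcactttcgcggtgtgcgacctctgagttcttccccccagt
The match begins 37 bases after the start in Utp20 and 60 bases before it in Nop2. A match is a string of letters and does not show binding. Myc itself was at 4636 and 4422 with apicidin against 5055 and 5329.8, and at 4475 and 4238 with shHdac3 against 4118 and 4291. It fell with apicidin (-0.20 ± 0.04), its knockdown change was 0.05 ± 0.04 (adjusted p = 0.38), and the difference of -0.25 ± 0.06 was lost without an intensity trend (0.073). The MXD repressors, which compete with MYC for MAX, moved the other way: Mxd1 rose with apicidin (0.47 ± 0.10) and fell with knockdown (-0.55 ± 0.10), with a difference of 1.01 ± 0.14, and Mxd4 fell with knockdown (-0.48 ± 0.07) and was at 0.06 ± 0.07 with apicidin (adjusted p = 0.57). Mxi1 showed a difference of 0.77 ± 0.08, and its apicidin rise was lost with DESeq2 (0.073), without DMSO replicate 1 (0.11), without apicidin replicate 1 (0.055) and without apicidin replicate 2 (0.06). Of the 11 genes of this network, 5 differed above 0 and 1 below. Whether MYC or the MXD factors had a part in the ribosome biogenesis values was not tested.

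Genes that supply building blocks for growth also lay mostly below 0. Of 25 polyamine and nucleotide synthesis genes, 19 differed below 0 and 2 above, and 9 were opposed, 5 without an intensity trend. Mthfd1l, a mitochondrial folate enzyme, was at 1757 and 1854 with apicidin against 2683 and 2583 and at 2586 and 2634 with shHdac3 against 2126 and 2171, so neither pair of groups overlapped and the directions were opposite. Its difference was -0.82 ± 0.06 (adjusted p = 2.5e-09). Umps, which makes uridine monophosphate, fell with apicidin (-0.29 ± 0.04) and rose with knockdown (0.33 ± 0.04), and Srm, spermidine synthase, did the same (-0.34 ± 0.05 and 0.40 ± 0.05). The 2 above 0 were the antizyme gene Oaz2 (0.34 ± 0.07, outside the rule for named genes) and Sat1, which acetylates polyamines for export and breakdown, with a difference of 0.91 ± 0.16 and a knockdown change of -0.60 ± 0.11. Of 20 cytosolic tRNA synthetase genes, 14 differed below 0. The knockdown raised 17 of these enzymes, which charge tRNAs with amino acids, and apicidin raised 2 and lowered 1. Nars, for asparagine, was at 0.34 ± 0.04 with knockdown and -0.05 ± 0.04 with apicidin (adjusted p = 0.34), and Lars, for leucine, at 0.36 ± 0.04 and -0.00 ± 0.04 (adjusted p = 1). Sars, for serine, was the only member with a called difference above 0 (0.38 ± 0.05), and its knockdown change was -0.35 ± 0.04.

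Amino acid and folding genes followed in part. Among 23 ATF4 and amino acid genes, 11 differed below 0 and none above. These included the cystine transporter Slc7a11 (-0.50 ± 0.04 with apicidin and 0.18 ± 0.04 with knockdown), the serine enzyme Shmt2 (-0.18 ± 0.04 and 0.44 ± 0.04) and the serine synthesis gene Psat1 (-0.23 ± 0.04 and 0.32 ± 0.04). The factor Atf4 itself differed by -0.06 ± 0.06 (adjusted p = 0.44). Among 23 heat shock and chaperonin genes, 14 differed below 0 and none above. The mitochondrial chaperones Hspd1 (0.35 ± 0.04) and Hspa9 (0.34 ± 0.04) rose with knockdown and were at -0.06 ± 0.04 and -0.02 ± 0.04 with apicidin (adjusted p = 0.31 and 0.68).

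Of 78 cytosolic ribosomal protein genes, 1 differed above 0 and 2 below. The count below 0 was 12 without scrambled replicate 1, 4 without DMSO replicate 2 and 5 with DESeq2, and the count above 0 was 3 without scrambled replicate 2. Apicidin lowered 60 of them (median -0.21; 35 without an intensity trend and 34 without apicidin replicate 1) and the knockdown lowered 48 (median -0.19; 19 without an intensity trend, 20 without scrambled replicate 1 and 31 without shHdac3 replicate 2), and neither raised any. The 3 with a called difference were Rpl29 (0.42 ± 0.07), Rps4x (-0.23 ± 0.08) and Rpl15 (-0.21 ± 0.07); the last pair each lost the call without an intensity trend (0.083), with upper-quartile factors (0.051), without DMSO replicate 1 (0.066), without apicidin replicate 1 (0.12), without scrambled replicate 2 (0.11) and without shHdac3 replicate 1 (0.077) for Rps4x and without an intensity trend (0.12), with upper-quartile factors (0.071), without DMSO replicate 2 (0.056), without apicidin replicate 1 (0.15), without scrambled replicate 2 (0.16), without shHdac3 replicate 1 (0.083) and without shHdac3 replicate 2 (0.056) for Rpl15. Mitochondrial ribosomal proteins had 26 of 76 members below 0 and 1 above. The count below 0 was 11 with DESeq2, 10 without an intensity trend and 16 without DMSO replicate 1, without scrambled replicate 2 and without shHdac3 replicate 1. Their called share in either direction, 35.5%, was near that of all genes tested, of which 18.8% differed below 0. Nuclear genes of oxidative phosphorylation had 16 of 77 below 0, near the share of all genes, and 3 above, under it. The count below 0 was 5 without an intensity trend, 9 without apicidin replicate 1 and 8 without scrambled replicate 2 and without shHdac3 replicate 1. Proteasome subunits had 11 of 38 below 0 and 2 above, 7 with DESeq2, with upper-quartile factors, without DMSO replicate 1, without apicidin replicate 1 and without shHdac3 replicate 1 and 5 without an intensity trend. Their called share in either direction, 34.2%, was near the 33.2% of all genes tested.

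DNA replication genes showed the same direction as ribosome biogenesis. Of 41 members, 35 differed below 0 and none above, with a median difference of -0.37. The knockdown raised 35 and lowered none (median 0.30), and apicidin raised 5 (3 without an intensity trend and 2 without DMSO replicate 2 and without apicidin replicate 1) and lowered 15 (9 with DESeq2, without DMSO replicate 1 and without apicidin replicate 1 and 7 without an intensity trend; median -0.07). Cdc6, which loads the replicative helicase at origins, was at 4171 and 4225 with shHdac3 against 3016 and 3084 and at 2555 and 2572 with apicidin against 2601 and 2726. Its level rose in both knockdown libraries above both controls, and the apicidin change of -0.05 ± 0.04 did not pass (adjusted p = 0.31). Cdc45, a helicase component, was opposed, at 1568 and 1542 with apicidin against 1827 and 1784 and at 2572 and 2528 with shHdac3 against 2099.5 and 2048, a difference of -0.51 ± 0.06. Lig1, the ligase that joins Okazaki fragments, was opposed as well (-0.19 ± 0.04 with apicidin, 0.27 ± 0.04 with knockdown). Tk1, thymidine kinase, fell with apicidin (-0.49 ± 0.05) and was at -0.02 ± 0.05 with knockdown (adjusted p = 0.76). The opposed count of the list was 12, 6 with DESeq2, without DMSO replicate 1 and without apicidin replicate 1, 4 without an intensity trend and 7 without apicidin replicate 2.

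Mitotic genes differed in the same sense. Of 41, 34 differed below 0 and none above. Apicidin lowered 24 and raised 1 (median -0.17), and the knockdown raised 20 and lowered 2 (median 0.10). Cdc25b, the phosphatase that activates the mitotic kinase CDK1, was at 2119 and 2112 with apicidin against 2685 and 2607 and at 3365 and 3389.6 with shHdac3 against 2567 and 2587. Both directions held in every library, and the difference was -0.71 ± 0.06 (adjusted p = 7.3e-09). Cyclin A2 (Ccna2) was opposed (-0.22 ± 0.04 with apicidin, 0.17 ± 0.04 with knockdown). Espl1, the separase that parts sister chromatids, rose with knockdown (0.41 ± 0.04) and was at 0.00 ± 0.04 with apicidin (adjusted p = 0.97).

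**Figure D2:**
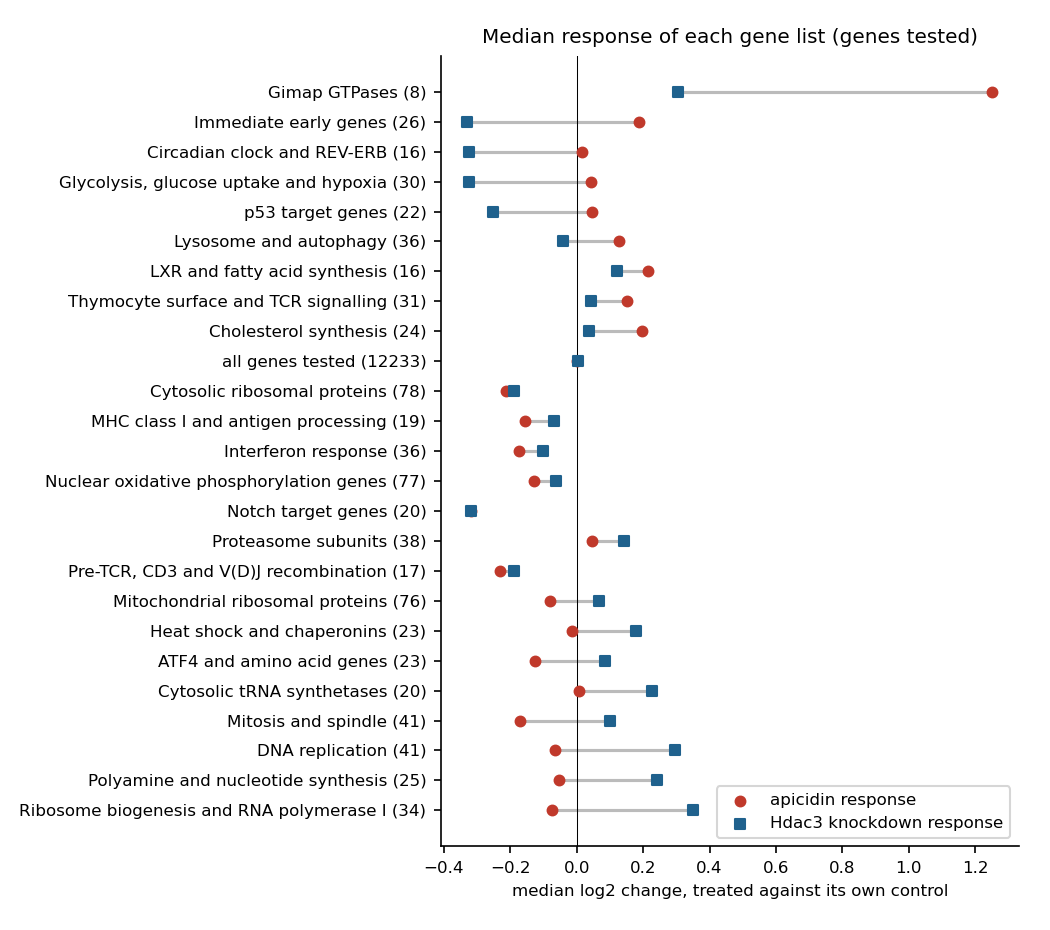
Median log2 change of each gene list (rows, with the number of genes tested) after apicidin (red circles) and after Hdac3 knockdown (blue squares), each against its own control. Ribosome biogenesis lies at -0.08 and 0.35, glycolysis and hypoxia at 0.04 and -0.33, and both symbols of the cytosolic ribosomal proteins lie left of 0.

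Of 24 regulators of cell cycle entry, 9 differed above 0 and 11 below. Those above 0 included Cdkn1b, which encodes the inhibitor p27 (2050.4 and 2037 with apicidin against 1499 and 1579.7, and 1269 and 1111 with shHdac3 against 1625 and 1711). It was higher in both apicidin libraries and lower in both knockdown libraries than in any of their controls, with responses of 0.41 ± 0.06 and -0.49 ± 0.06. Ccnd2, cyclin D2, behaved likewise (0.38 ± 0.07 and -0.84 ± 0.07; difference 1.22 ± 0.10, adjusted p = 4.9e-09). Below 0 stood Cdk6, a G1 kinase, which rose with knockdown (0.78 ± 0.05) and was at -0.03 ± 0.05 with apicidin (adjusted p = 0.66), and the inhibitor p57 gene Cdkn1c, which fell with apicidin (-0.99 ± 0.12) and was at 0.15 ± 0.12 with knockdown (adjusted p = 0.35). In the annotation used for overlaps (GENCODE M21), 30.3% of the exonic bases of Cdkn1c overlap a gene on the other strand, and the counting's use of strand is not given.

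Cdkn1a, which encodes the inhibitor p21 and is a target of p53, fell in both arms. It was at 382 and 345 with apicidin against 599.9 and 627 and at 282 and 268 with shHdac3 against 773 and 782, and the fall was larger with knockdown (-1.50 ± 0.08) than with apicidin (-0.76 ± 0.08; difference 0.74 ± 0.11, adjusted p = 2e-05). Of 22 p53 target genes, 9 differed above 0 and 2 below, and the knockdown lowered 11 and raised 1. The called share was 50% in this list and in the BCL2 family below, against 33.2% of all genes tested. Bbc3, which encodes the death protein PUMA, fell with knockdown (-1.10 ± 0.11) and was at 0.15 ± 0.11 with apicidin (adjusted p = 0.32). Trp53inp1, a p53-induced stress protein, was opposed (0.38 ± 0.04 with apicidin, -0.32 ± 0.04 with knockdown). The BCL2 family had 3 of its 12 tested genes above 0 and 3 below, with as few as 1 below in the alternatives. Below 0 were Bak1 (difference -0.37 ± 0.08), Bid (-0.27 ± 0.06) and Bcl2l1 (-0.37 ± 0.11), and above 0 were Bbc3 and the next 2 genes. Bmf, another death gene of the BCL2 family, fell with knockdown (-0.88 ± 0.06; -0.05 ± 0.06 with apicidin, adjusted p = 0.57), and Bcl2l11, which encodes BIM, rose with apicidin (0.38 ± 0.05; 0.04 ± 0.05 with knockdown, adjusted p = 0.6).

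Glucose uptake, glycolysis and hypoxia genes ran the other way from the growth genes. Cells take glucose up through the SLC2A transporters and export lactate through SLC16A3, and the factor HIF1 raises these genes when oxygen is low. Of 30 tested, 20 differed above 0 and 1 below, with a median difference of 0.43. The knockdown lowered 24 and raised none (median -0.33), and apicidin raised 12 and lowered 3 (median 0.04). There were 11 opposed genes.

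The promoters of 4 genes in this group are shown for the letters ACGTG, the core of the element that HIF factors bind, given in capitals on either strand. The motif was added after the values had been seen. It was present for 22 of the 29 members with a promoter entry (75.9%), against 29.3% of all tested genes with one. The list was compiled by hand around glycolysis and hypoxia genes, so a high share follows in part from its making. The letters were also found for 58.3% of clock, 46.4% of ribosome biogenesis and 39.4% of mitotic genes, and for 10.7% of interferon response genes. ACGTG is also part of the E-box CACGTG, which 4 of these members held.
Slc16a3: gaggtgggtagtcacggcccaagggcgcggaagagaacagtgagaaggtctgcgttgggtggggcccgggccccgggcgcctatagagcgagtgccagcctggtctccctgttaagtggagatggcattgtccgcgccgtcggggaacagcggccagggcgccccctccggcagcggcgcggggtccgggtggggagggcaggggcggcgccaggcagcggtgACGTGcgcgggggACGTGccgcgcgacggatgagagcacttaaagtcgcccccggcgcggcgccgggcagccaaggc
Bnip3: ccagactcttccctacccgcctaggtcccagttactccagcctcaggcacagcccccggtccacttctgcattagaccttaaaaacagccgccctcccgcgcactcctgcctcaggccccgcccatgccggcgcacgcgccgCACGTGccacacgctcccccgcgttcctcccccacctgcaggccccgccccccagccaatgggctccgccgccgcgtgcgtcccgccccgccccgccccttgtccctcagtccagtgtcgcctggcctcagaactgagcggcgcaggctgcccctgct
P4ha1: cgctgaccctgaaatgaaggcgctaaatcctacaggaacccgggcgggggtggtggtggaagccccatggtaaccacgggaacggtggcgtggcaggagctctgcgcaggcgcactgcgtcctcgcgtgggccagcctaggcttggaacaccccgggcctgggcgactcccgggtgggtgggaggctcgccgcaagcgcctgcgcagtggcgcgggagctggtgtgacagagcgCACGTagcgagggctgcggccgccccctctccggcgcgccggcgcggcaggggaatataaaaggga
Hk2: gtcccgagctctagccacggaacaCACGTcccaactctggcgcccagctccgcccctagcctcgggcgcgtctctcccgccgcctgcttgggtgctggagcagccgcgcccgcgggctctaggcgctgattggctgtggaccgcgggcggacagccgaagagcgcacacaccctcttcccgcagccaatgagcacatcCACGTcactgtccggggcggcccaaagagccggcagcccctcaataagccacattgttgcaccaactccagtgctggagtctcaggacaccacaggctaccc
These windows of 300 bases lie at chr11:120948817-120949116, plus strand, chr7:138909457-138909756, minus strand, chr10:59323046-59323345, plus strand and chr6:82774405-82774704, minus strand (RefSeq, GRCm38.p6). Slc16a3 holds the letters 27 and 14 bases before the start. In Bnip3 the matches on the 2 strands overlap and spell an E-box.

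Slc16a3 was at 688 and 686 with apicidin against 468 and 483 and at 109 and 114 with shHdac3 against 242 and 283. All libraries of each arm lay apart from their controls, up with apicidin (0.53 ± 0.09) and down with knockdown (-1.22 ± 0.09), and the difference was 1.75 ± 0.13 (adjusted p = 2.2e-09). The glucose transporter gene Slc2a1 was opposed in the same sense (0.58 ± 0.05 and -0.87 ± 0.05). Bnip3, which targets mitochondria for autophagy, was at 1620.4 and 1684 with apicidin against 1101 and 1081 and at 526 and 463 with shHdac3 against 835 and 819.7. Its difference was 1.34 ± 0.09, and 27.2% of its exonic bases overlap a gene on the other strand. Ddit4, which restrains the growth kinase mTOR, was opposed (0.28 ± 0.04 with apicidin, -1.19 ± 0.04 with knockdown). Eno2, an enolase, had the largest difference of the list (2.39 ± 0.30), with a knockdown change of -1.71 ± 0.21; its apicidin response of 0.68 ± 0.21 lost its call with DESeq2 (0.053), without DMSO replicate 2 (0.13) and without apicidin replicate 2 (0.12). Ankrd37, a known HIF target, fell with knockdown (-1.94 ± 0.08) and was at -0.21 ± 0.08 with apicidin (adjusted p = 0.052; 0.033 with edgeR, 0.029 with all 12 libraries and 0.019 without an intensity trend). Opposite-strand genes overlap 26.2% of its exonic bases. The abundant glycolytic genes Gapdh (-0.01 ± 0.09, adjusted p = 0.95), Ldha (-0.16 ± 0.07, 0.094; 0.031 with DESeq2) and Pkm (-0.13 ± 0.09, 0.33) did not pass for the difference in the limma fit. Hk2 and P4ha1, whose promoters are shown, fell outside the rule for named genes and were chosen after their values were seen: hexokinase Hk2 was at 0.78 ± 0.05 and -0.50 ± 0.05, and the collagen prolyl hydroxylase gene P4ha1 at 0.36 ± 0.04 and -0.63 ± 0.04, with apicidin first.

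Txnip, which binds thioredoxin and limits glucose uptake and is a common marker of deacetylase inhibition, also went in opposite directions. Its level was 21342 and 21115 with apicidin against 12453 and 12444, and 5603 and 5652 with shHdac3 against 11286 and 11933. The responses were 0.77 ± 0.04 and -1.04 ± 0.04, and the difference 1.81 ± 0.06 had an adjusted p of 2.9e-15. Opposite-strand genes overlap 21.4% of its exonic bases. Gsn, the actin-severing protein gelsolin (0.86 ± 0.04 with apicidin, -0.36 ± 0.04 with knockdown), and H1f0, a linker histone of non-dividing cells (0.64 ± 0.04 and -0.19 ± 0.04), were opposed too. Of the 10 tested marker genes of deacetylase inhibitors, 5 differed above 0 and none below, and with upper-quartile scaling 8 did. Apicidin raised 7 and lowered 2, and the knockdown raised 2 and lowered 5. Cdkn1a, described above, is also in this list and was lowered in both arms (-0.76 ± 0.08 with apicidin, -1.50 ± 0.08 with knockdown). It counts above 0 because it fell further with knockdown.

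**Figure D3:**
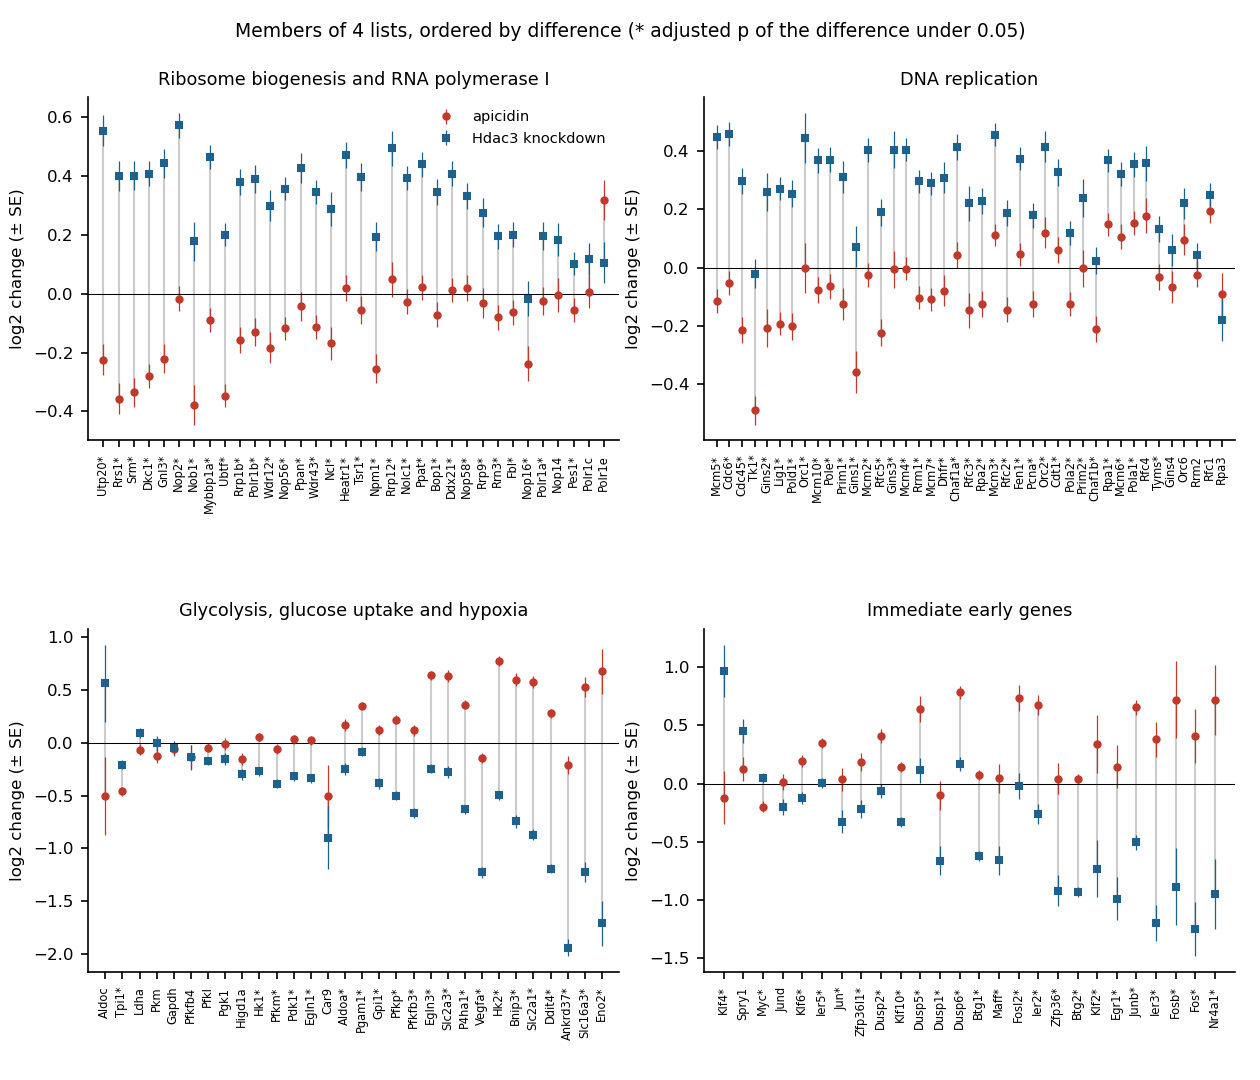
Log2 change ± SE of each tested member of 4 lists after apicidin (red circles) and Hdac3 knockdown (blue squares), ordered by the difference, with an asterisk where its adjusted p was under 0.05. In the upper panels the blue squares lie above the red circles for nearly all genes, and in the lower panels most lie below.

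Immediate early genes, which signalling switches on within minutes of a stimulus, also lay mostly above 0. Of 26 tested, 22 differed above 0 and 2 below, with a median difference of 0.66. The knockdown lowered 18 of them (11 with DESeq2 and without scrambled replicate 2) and raised 3, and apicidin raised 9 and lowered 1. Junb, an AP-1 subunit, was at 922 and 924 with apicidin against 568 and 602 and at 592 and 568 with shHdac3 against 785 and 863. It was higher in both apicidin libraries and lower in both knockdown libraries than in their controls (0.66 ± 0.06 and -0.50 ± 0.06; difference 1.16 ± 0.09, adjusted p = 4.2e-09). Fos fell with knockdown (-1.25 ± 0.23) and was at 0.41 ± 0.23 with apicidin (adjusted p = 0.18). The anti-proliferative gene Btg2 fell with knockdown (-0.93 ± 0.04) and was at 0.04 ± 0.04 with apicidin (adjusted p = 0.49). The members with a called difference below 0 were Myc and Klf4, of which Klf4 was chosen after its values were seen (-0.12 ± 0.23 with apicidin, 0.97 ± 0.23 with knockdown). The Klf4 difference was lost with DESeq2 (0.083) and without scrambled replicate 1 (0.066).

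Of 16 circadian clock genes, 9 differed above 0 and none below (56.25% called, against 33.2% of all genes tested). Dbp, an output gene of the clock, was at 149 and 134 with shHdac3 against 363 and 418 and at 213 and 231 with apicidin against 314 and 324. It fell in both arms, further with knockdown (-1.46 ± 0.11) than with apicidin (-0.52 ± 0.11), and 29.3% of its exonic bases overlap a gene on the other strand. Bhlhe40, a repressor in the clock loop, fell with knockdown (-0.97 ± 0.06; -0.03 ± 0.06 with apicidin, adjusted p = 0.75). Rora, an activating receptor of the loop, rose with apicidin (1.02 ± 0.08; -0.04 ± 0.08 with knockdown, adjusted p = 0.75). The core pair Clock (0.11 ± 0.10, adjusted p = 0.39) and Arntl (0.02 ± 0.07, adjusted p = 0.86) did not pass.

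NF-kappaB genes went both ways, with 6 of 15 above 0 and 3 below (60% called, against 33.2% of all genes tested). Tnf, the inflammatory cytokine, rose with apicidin (1.16 ± 0.10; -0.09 ± 0.10 with knockdown, adjusted p = 0.5), Nfkb2 fell with knockdown (-1.04 ± 0.06; -0.14 ± 0.06 with apicidin, adjusted p = 0.076), and the adhesion gene Icam1 rose in both, further with apicidin (1.01 ± 0.10 and 0.44 ± 0.10). Among 12 genes of the glucocorticoid receptor and its targets, 8 differed above 0 and 3 below (91.7% called), and with DESeq2 5 differed above. The transglutaminase gene Tgm2 fell with knockdown (-1.35 ± 0.29; 0.39 ± 0.29 with apicidin, adjusted p = 0.31). Opposite-strand genes overlap 22.6% of the exonic bases of Tgm2, 20.2% of those of Icam1 and 19.7% of those of Nfkb2.

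Notch target genes, the subject of the series, mostly fell in both arms. Of 20 tested, apicidin lowered 12 and raised 5, and the knockdown lowered 12 and raised 3, with medians of -0.32 and -0.32. The difference nevertheless passed for 6 above 0 and 8 below. Notch3 was at -0.80 ± 0.04 with apicidin and -0.81 ± 0.04 with knockdown, and its difference of 0.02 ± 0.06 (adjusted p = 0.84) has a small SE. Dtx1, a Notch-induced ubiquitin ligase, differed by -0.11 ± 0.07 (adjusted p = 0.25; 0.026 without DMSO replicate 1). Ptcra, which encodes the pre-TCR alpha chain, was at 1138 and 1129 with apicidin against 3511 and 3714 and at 2913 and 2956 with shHdac3 against 6980.4 and 6765. It fell in both arms, further with apicidin (-1.67 ± 0.04) than with knockdown (-1.23 ± 0.04; adjusted p of the difference 8.5e-06). The repressor genes Hey1 (-1.27 ± 0.05 and -0.62 ± 0.05) and Heyl (-1.64 ± 0.10 and -0.58 ± 0.10) and the receptor gene Notch1 (-0.63 ± 0.05 and -0.30 ± 0.05) also fell further with apicidin, given first. Hes1 fell further with knockdown (-0.78 ± 0.08) than with apicidin (-0.23 ± 0.08), and the apicidin call was lost with DESeq2 (0.079), without an intensity trend (0.14), without DMSO replicate 2 (0.3) and without apicidin replicate 1 (0.22).

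Some targets parted. Il7r, the IL-7 receptor that thymocytes need to survive, was at 200.2 and 208 with apicidin against 389 and 367 and at 651 and 660.4 with shHdac3 against 463 and 433. It was lower in both apicidin libraries and higher in both knockdown libraries than in their controls (-0.88 ± 0.08 and 0.55 ± 0.08; difference -1.43 ± 0.11, adjusted p = 5.3e-09). The growth factor receptor gene Igf1r was opposed in the other sense (0.43 ± 0.06 and -0.63 ± 0.06), as was the pseudokinase gene Trib2 (0.52 ± 0.04 and -0.27 ± 0.04). Il2ra, the IL-2 receptor alpha chain, fell with apicidin (-0.76 ± 0.09) and was at 0.05 ± 0.09 with knockdown (adjusted p = 0.69). Gata3, a T lineage factor, rose with apicidin (0.61 ± 0.05) and by 0.18 ± 0.05 with knockdown, a call that was lost without an intensity trend (0.1) and without shHdac3 replicate 1 (0.086), and the difference was 0.43 ± 0.07. Of 27 Notch pathway components, 9 differed above 0 (5 without an intensity trend) and 3 below. Their called share was 44.4%, against 33.2% of all genes tested. Aph1b, a γ-secretase subunit, was opposed (0.56 ± 0.12 with apicidin, -0.72 ± 0.12 with knockdown), and the fringe gene Rfng, which glycosylates Notch, rose with knockdown (0.39 ± 0.08; -0.08 ± 0.08 with apicidin, adjusted p = 0.45).

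Of 17 genes of the pre-TCR, CD3 and V(D)J recombination, apicidin lowered 11 and the knockdown 8, and the difference passed for 7 below 0 and 2 above. Rag2, which with Rag1 forms the recombinase, fell further with apicidin (-1.001 ± 0.08) than with knockdown (-0.45 ± 0.08). The end-joining gene Xrcc6 fell with apicidin (-0.55 ± 0.04) and was at -0.02 ± 0.04 with knockdown (adjusted p = 0.7).

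Of 31 thymocyte surface and T cell receptor signalling genes, 14 differed above 0 (7 without an intensity trend) and 5 below (3 without DMSO replicate 1). Cd69, an early activation marker, was at 236 and 218 with apicidin against 75 and 79.1 and at 134 and 124 with shHdac3 against 120.4 and 119. It rose with apicidin in both libraries (1.55 ± 0.13), and the knockdown groups differed by 0.10 ± 0.13 (adjusted p = 0.57). The co-receptor gene Cd4 fell in both arms, further with knockdown (-1.22 ± 0.04) than with apicidin (-0.35 ± 0.04). Rasgrp1, which links the T cell receptor to Ras, rose with apicidin (0.76 ± 0.05; 0.03 ± 0.05 with knockdown, adjusted p = 0.71).

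Cytokine receptor and STAT5 feedback genes split evenly, with 6 of 29 above 0 and 6 below (41.4% called, against 33.2% of all genes tested). Il10ra, the IL-10 receptor chain, was at 1329 and 1358 with apicidin against 953 and 903 and at 172 and 167 with shHdac3 against 473 and 523, so it went up with the drug and down with the hairpin in every library (difference 2.08 ± 0.10, adjusted p = 1.8e-12). Il2rb, the chain shared by the IL-2 and IL-15 receptors, did the reverse (-0.70 ± 0.14 with apicidin, 0.85 ± 0.14 with knockdown). Kit, the stem cell factor receptor, rose in both, further with knockdown (0.97 ± 0.05) than with apicidin (0.34 ± 0.05), and the mast cell protease gene Cpa3 rose with knockdown (1.33 ± 0.06; -0.04 ± 0.06 with apicidin, adjusted p = 0.59). In the mast cell and myeloid list, 6 of 26 genes were high enough to be tested, and 2 differed above 0, Mmp9 (2.25 ± 0.23) and the integrin gene Itgam (0.54 ± 0.11), and 2 below, Kit and Cpa3. Same-strand genes overlap 70% of the exonic bases of Itgam, so its value is uncertain. Summed levels of 8 mast and myeloid markers were 4.55 to 5.47 with apicidin, 3.52 to 9.09 with DMSO, 7.2 to 7.3 with shHdac3 and 11.8 to 19.4 with the scrambled hairpin, and their part in these values was not tested.

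Among transcription factors of early T cells, 7 of 32 differed above 0 and 5 below (3 with upper-quartile factors, without DMSO replicate 1, without apicidin replicate 1, without scrambled replicate 1 and without shHdac3 replicate 1). Their called share, 37.5%, was near the 33.2% of all genes tested. Zbtb7b, the factor ThPOK of CD4 lineage choice, was opposed at low level, with 62.4 and 72.8 with apicidin against 44.3 and 29 and 32.9 and 45.9 with shHdac3 against 85.7 and 81.8; its apicidin call was lost without DMSO replicate 2 (0.084). Myb, a progenitor factor, rose with knockdown (0.56 ± 0.05; -0.06 ± 0.05 with apicidin, adjusted p = 0.29), and the E protein inhibitor Id1 fell in both, further with apicidin (-1.10 ± 0.09 and -0.43 ± 0.09).

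Trafficking genes gave 11 of 25 above 0 (6 with DESeq2) and 6 below (3 with DESeq2 and 2 without an intensity trend). Their called share was 68%, against 33.2% of all genes tested. Itga4, the integrin alpha 4 chain that mediates lymphocyte adhesion, was at 923 and 883 with shHdac3 against 324 and 279 and at 246 and 246 with apicidin against 258 and 288. It rose with knockdown (1.58 ± 0.09), while apicidin gave -0.15 ± 0.09 (adjusted p = 0.2). Lztfl1, a ciliary trafficking gene beside Ccr9, rose in both, further with apicidin (1.54 ± 0.05 and 0.79 ± 0.05). The Gimap genes, GTPases of lymphocyte survival that lie in 1 cluster, all rose with apicidin (8 of 8, median 1.25), and 6 rose with knockdown (median 0.31; 3 with DESeq2 and without scrambled replicate 2). The difference passed for 6 above 0, of which Gimap6 (1.26 ± 0.05 with apicidin, 0.39 ± 0.05 with knockdown) kept all its calls in each alternative tried. Of 21 NK and cytotoxic genes, 10 were tested, and 2 differed above 0 (4 with upper-quartile factors, 0 with a filter of 50) and 1 below. This called share, 30%, was near that of all genes tested. The knockdown raised 3 and lowered 3. The member below 0 was the granzyme inhibitor gene Serpinb9 (-0.55 ± 0.16), a call lost without shHdac3 replicate 1 (0.081). Prf1, perforin, was at 75.5 and 105 with apicidin against 38.6 and 47.5 and at 12.3 and 8.35 with shHdac3 against 29.6 and 24.5, a difference of 2.36 ± 0.39; its apicidin call was lost without DMSO replicate 1 (0.052) and without apicidin replicate 2 (0.1). Nkg7, a granule protein gene, fell with knockdown (-1.33 ± 0.25; 0.02 ± 0.25 with apicidin, adjusted p = 0.96).

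**Figure D4:**
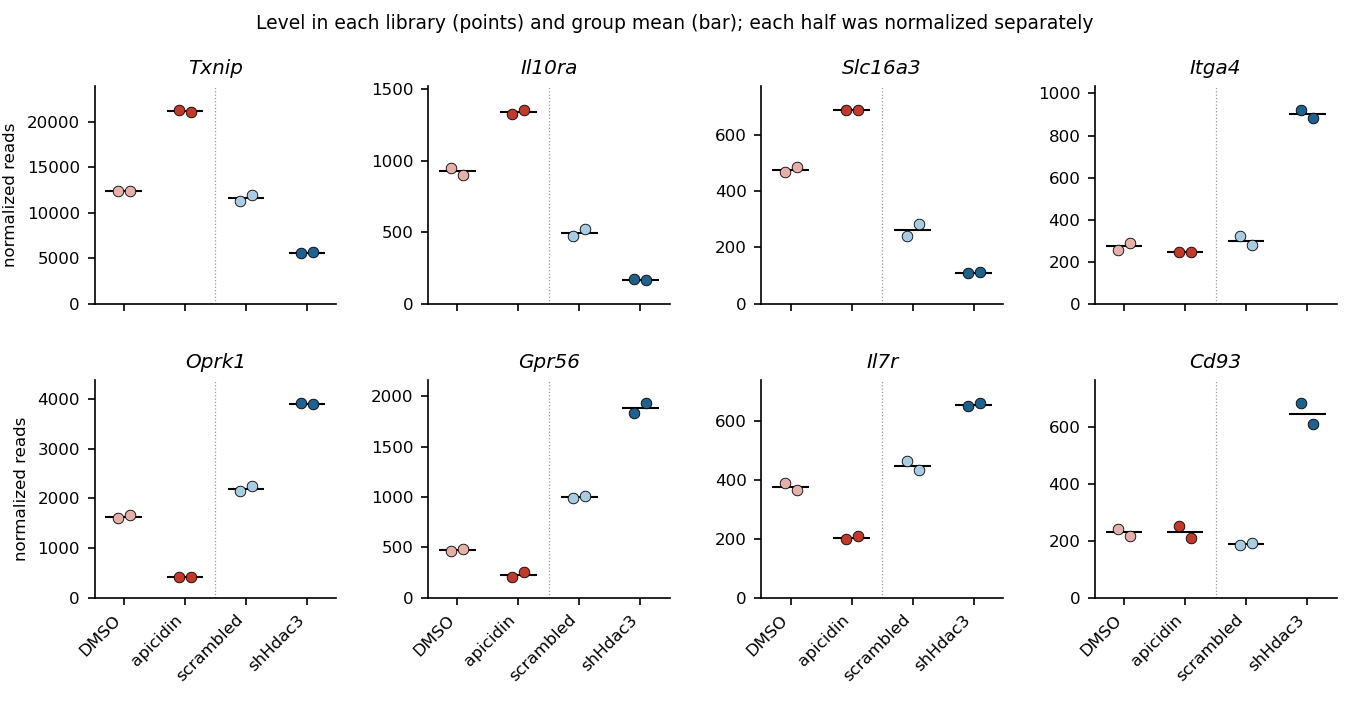
Normalized reads of 8 genes in each library (points) with the group mean (bar), in the order DMSO, apicidin, scrambled and shHdac3; levels are comparable within the DMSO and apicidin pair or the hairpin pair only. Txnip, Il10ra and Slc16a3 rose with apicidin and fell with shHdac3, Oprk1, Gpr56 and Il7r did the reverse, and Itga4 and Cd93 passed with shHdac3 only.

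Several large differences fell outside these groups. Oprk1, the kappa opioid receptor, had the largest called difference below 0 (-2.78 ± 0.07, adjusted p = 9.9e-18). It was at 420.1 and 424 with apicidin against 1598 and 1659.7 and at 3912 and 3904 with shHdac3 against 2140.4 and 2251, lower in both drug libraries and higher in both knockdown libraries. The adhesion receptor gene Gpr56 (-1.07 ± 0.08 with apicidin, 0.91 ± 0.08 with knockdown) and the gluconeogenic enzyme gene Fbp1 (-1.18 ± 0.05 and 0.54 ± 0.05) were opposed in the same sense, as were Cd160, a receptor for HVEM (-0.49 ± 0.10 and 1.20 ± 0.10), and Slc22a3, an organic cation transporter (-0.51 ± 0.06 and 0.88 ± 0.06). Cdh1, E-cadherin, fell with apicidin, from 328 and 316 to 53.6 and 59.1 (-2.50 ± 0.11), and was at -0.24 ± 0.11 with knockdown (adjusted p = 0.087; 0.039 with edgeR and 0.046 with upper-quartile factors). Cd93 rose with knockdown, from 186 and 194 to 684 and 611 (1.76 ± 0.11), and was at 0.00 ± 0.11 with apicidin (adjusted p = 0.98). Gpr97 rose with knockdown, from 85.7 and 95.4 to 445 and 445 (2.29 ± 0.15), and was at 0.36 ± 0.15 with apicidin (adjusted p = 0.061; 0.049 with all 12 libraries and 0.011 without an intensity trend).

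Above 0, the gelatinase gene Mmp9 rose with apicidin, from 76.1 and 92.3 to 349 and 371 (2.09 ± 0.17), and was at -0.16 ± 0.17 with knockdown (adjusted p = 0.47). Arc, better known from neurons, rose with apicidin (0.65 ± 0.10) and fell with knockdown (-1.29 ± 0.10). Gipr, a gut hormone receptor gene, fell in both arms, from 78.6 and 74.5 to 7.2 and 9.39 with knockdown (-3.07 ± 0.25) and from 65.9 and 82.6 to 36.1 and 36.4 with apicidin (-1.01 ± 0.25). The adhesion gene Cadm4 was opposed at low level, at 64.6 and 70 with apicidin against 32.9 and 30.8 and at 27.8 and 36.5 with shHdac3 against 100.03 and 78.2. The surface genes Ly6c1 (0.88 ± 0.04 with apicidin, -0.90 ± 0.04 with knockdown) and Ly6c2 (0.89 ± 0.06 and -0.85 ± 0.06) are near-identical copies between which reads may be split, so their separate values are uncertain. Among 31 neuronal-type genes, Oprk1 included, 8 differed above 0 and 5 below (41.9% called, against 33.2% of all genes tested). Unc13a, a vesicle priming factor, fell with knockdown (-1.49 ± 0.12) and was at 0.13 ± 0.12 with apicidin (adjusted p = 0.4).

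Of 19 MHC class I and processing genes, 4 differed above 0 and 8 below. The immunoproteasome subunit gene Psmb10 was at 681 and 657 with apicidin against 1066 and 1087 and at 1286 and 1268 with shHdac3 against 1105 and 1063, opposed (-0.69 ± 0.05 and 0.24 ± 0.05). So was the peptide-trimming gene Erap1 (-0.45 ± 0.04 and 0.32 ± 0.04). The 4 members above 0 were all heavy chain genes: H2-D1 rose with apicidin (0.39 ± 0.07; -0.06 ± 0.07 with knockdown, adjusted p = 0.5), and H2-K1 fell with knockdown (-0.48 ± 0.09) and was at 0.37 ± 0.09 with apicidin, a call lost without apicidin replicate 2 (0.072). These genes are highly similar to each other, so the split of reads between them is uncertain. Interferon response genes were near the share of all genes, with 6 of 36 above 0 (3 with DESeq2) and 7 below. Rsad2, the antiviral gene viperin, rose with apicidin (1.003 ± 0.20; -0.13 ± 0.20 with knockdown, adjusted p = 0.65).

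Of 24 cholesterol synthesis genes, 10 differed above 0 and 3 below, with apicidin raising 14 and the knockdown 9. The called share was 54.2% in this list, against 33.2% of all genes tested. It was 50% in the LXR list and 52.8% in the lysosome list that follow. Insig1, the sterol sensor, rose with apicidin (0.38 ± 0.04; -0.02 ± 0.04 with knockdown, adjusted p = 0.69), and the squalene epoxidase gene Sqle rose in both, further with apicidin (0.51 ± 0.04 and 0.18 ± 0.04), while Idi1 rose with knockdown (0.47 ± 0.05; 0.09 ± 0.05 with apicidin, adjusted p = 0.13). Among 16 LXR and fatty acid genes, 5 differed above 0, Srebf1 with them (0.34 ± 0.05 with apicidin, -0.02 ± 0.05 with knockdown, adjusted p = 0.72), and 3 below, with the elongase gene Elovl5 rising further with knockdown (0.52 ± 0.04) than with apicidin (0.17 ± 0.04). Of 36 lysosome and autophagy genes, 17 differed above 0 (11 without an intensity trend) and 2 below. Wipi1, an autophagosome protein, rose with apicidin (0.91 ± 0.19; -0.14 ± 0.19 with knockdown, adjusted p = 0.59), and Gusb, a lysosomal glucuronidase, was opposed below 0 (-0.33 ± 0.06 and 0.27 ± 0.06).

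NuRD, Sin3 and CoREST subunits gave 2 of 28 above 0 and 5 below. The count below 0 was 3 without an intensity trend, without apicidin replicate 1, without scrambled replicate 2 and without shHdac3 replicate 1. Among those below was Mbd3, which fell with apicidin (-0.51 ± 0.05, against -0.00 ± 0.05 with knockdown, adjusted p = 0.97). The called share was 25% in this list and 45.8% in the Polycomb list below, against 33.2% of all genes tested. Of 13 acetyltransferases and acetyl-lysine readers, none had a called difference above 0 and 7 had one below (4 with DESeq2, with upper-quartile factors and without shHdac3 replicate 1, 2 without an intensity trend and 3 without scrambled replicate 1). Kat2b fell further with apicidin (-0.67 ± 0.05) than with knockdown (-0.31 ± 0.05). Polycomb genes gave 5 of 24 above 0 (2 without an intensity trend) and 6 below (2 with DESeq2, without apicidin replicate 2 and without shHdac3 replicate 1 and 3 without an intensity trend, with upper-quartile factors, without apicidin replicate 1 and without scrambled replicate 1), with Phf19 lowered by apicidin (-0.55 ± 0.08; 0.08 ± 0.08 with knockdown, adjusted p = 0.45) and Jarid2 raised by it (0.49 ± 0.04; -0.07 ± 0.04, adjusted p = 0.26). Of 9 tested DNA methylation genes, 3 differed below 0 and none above, a called share of 33.3% that was near that of all genes. The maintenance methylation genes Uhrf1 (0.45 ± 0.05) and Dnmt1 (0.32 ± 0.05) rose with knockdown and were at -0.02 ± 0.05 and 0.05 ± 0.05 with apicidin (adjusted p = 0.78 and 0.45). Dnmt3b, also below 0, fell with apicidin (-0.62 ± 0.06) and was at 0.01 ± 0.06 with knockdown (adjusted p = 0.88). Clustered histone genes gave 3 of 63 above 0 and 3 below (9.52% called, under the 33.2% of all genes tested). The count below 0 was 19 without DMSO replicate 1, 10 with DESeq2, and 0 without DMSO replicate 2, without shHdac3 replicate 1 or without an intensity trend. They took 16.97% to 21.4% of the reads of these libraries. The testis linker histone gene Hist1h1t rose with apicidin (1.83 ± 0.19; -0.09 ± 0.19 with knockdown, adjusted p = 0.74). Structural RNA genes gave 8 of 90 above 0 and 1 below (10% called, also under the share of all genes). The first count ran from 3 to 25 when single libraries were left out.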

How the data were processed

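RNA was depleted of ribosomal RNA and sequenced from stranded libraries, per the labels' protocols. The submitters' processing notes name the mm9 build, FastQC, Bowtie2, TopHat and DESeq2 without versions; how genes were counted, with which annotation and strand setting, is not given in the sources used here. Each gene's deposited signal was whole reads divided by 1 factor per library, set separately in each table of 4 libraries: multiplying by that factor returned whole reads for 100% of values (within 1e-06). Levels were therefore compared within a table only.

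The filter kept a gene when 2 or more libraries of each table reached 10. log2(value + 1) was fitted with limma 3.58.1 (R 4.3.3) with an intensity trend over 4 groups of 2 libraries, with contrasts for apicidin against DMSO, shHdac3 against scrambled, and their difference. Tests were two-sided with Benjamini-Hochberg adjustment at 0.05. Fold changes on this scale understate the change of low genes. edgeR 4.0.16 and DESeq2 1.42.0 were run on the recovered reads as alternatives, beside other pseudocounts, filters and scalings, all 12 libraries, a replicate block and each library left out. Code was tested on simulated data.

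Named genes were fixed Notch, HDAC and cell cycle genes, the 12 largest differences in each direction and the 8 strongest opposed genes in each direction (curated symbols with a group mean of 50 or more in each table and 1 sign over all replicate pairings), and up to 6 called members of each list. Genes outside this rule are marked as such. The members and gene lists were chosen with earlier results of these data known. Promoters came from RefSeq (GRCm38.p6). Results for some genes are not reported here.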

Additional observations from a re-analysis of the deposited data

How the results depend on the processing

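With DESeq2 the difference passed for 2616 genes, 1066 of them above 0, and 368 genes were opposed, 147 up with apicidin and 221 down. Without an intensity trend 1488 genes differed below 0 and 436 were opposed, 213 of them down with apicidin. Without apicidin replicate 1, 203 opposed genes were up with apicidin. edgeR called 4089 differences. Leaving out single libraries gave 3254 to 3709 differences, 1398 to 1613 above 0 and 1783 to 2096 below; 3379 to 4781 apicidin and 3802 to 5157 knockdown calls; and 496 to 630 opposed genes, 203 to 271 up with apicidin and 293 to 366 down. No difference that passed in both the reported fit and an alternative changed sign between them. The cause of these shifts was not tested. Replicate numbers did not pair the libraries (correlation of same-numbered deviations 0.025 in the apicidin and 0.016 in the hairpin experiment), and a replicate block gave 3956 differences. With 2 libraries a group, small differences and genes at low level are measured with little precision.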

Other observations

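The series also holds 2 libraries treated with the γ-secretase inhibitor DAPT and their 2 DMSO controls. Of the 308 opposed genes up with apicidin and down with knockdown, 306 had a value there, and 225 of them lay above 0 with DAPT, with a median log2 change of 0.17. Of the 436 opposed the other way, 328 lay below 0, with a median of -0.14. Over all 12204 genes with a value, 6086 lay above 0. These are values only, with no test.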
